A study of Mus musculus with 24 samples.

Results

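The PE-Cy7 channel of the cytometer was compared with the transcriptome in single mouse haematopoietic stem cells (HSCs), by setting the cells with the highest PE-Cy7 signal against those with the lowest. Within each of 4 sort plates, the 20% of cells with the highest PE-Cy7 area were called PE-Cy7-high and the 20% with the lowest PE-Cy7-low. Of 1430 cells with a cytometer record, 10 carried the map number 1 (a whole number recorded for each cell, whose meaning no source used here states) and 77 had a spreadsheet error in place of a PE-Cy7 value, and all of these were left out. The remaining 1343 cells comprised 268 PE-Cy7-high cells, 807 in the middle and 268 PE-Cy7-low cells. Plates 2, 3, 4 and 5 gave 67, 65, 68 and 68 cells to each side. No source used here names the antibody that carried PE-Cy7, so high and low refer to the dye's channel and to no surface protein.

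All cells were HSCs gated as lineage-negative, Sca-1+ and Kit+ cells (LSK) that were CD150+ and CD48-. The mice were of the strain -60/DR5-TA-RA-CFP, which carries a cyan fluorescent protein (CFP) reporter, and the single cells were of mixed CFP status. The labels give 8 single-cell samples, while the deposited table pools their wells with no map from well to sample. High, middle and low cells therefore share genotype, gate and plate, and the 4 plates stand as technical replicates of 1 pooled collection, with no measure of the spread between mice. The study's title puts cell-cycle status at the centre of HSC heterogeneity.

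HSCs renew themselves for life and give rise to all blood lineages. Most of them in adult marrow are quiescent, with little RNA and low expression of the genes for DNA replication and mitosis, and they enter the cycle rarely. Genes such as Hlf and Mllt3 are known for their roles in keeping HSCs, while Cd34 marks progenitors and HSCs that are closer to leaving the long-term compartment in the mouse. PE-Cy7 is a tandem dye, excited like phycoerythrin (PE) and emitting in the far red, that is coupled to an antibody against a surface protein.

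Each cell's transcripts were counted by unique molecular identifiers (UMIs), and the cells compared held 511 to 6026 UMIs. Summed per plate and side, the libraries held 109059 to 136016 UMIs in PE-Cy7-high cells and 74929 to 90818 UMIs in PE-Cy7-low cells. Plate 2 stood apart from the others in some genes. Of 3268 tested genes, 113 lay in plate 2 at under 1/4 of their level in every other plate, against 0 such genes in each of plates 3, 4 and 5. Ifitm1 was one of the low genes of plate 2, at 228 CPM (UMIs as a share of the library, scaled to a fixed total) over all cells, against 2378, 2483 and 2341 CPM in plates 3, 4 and 5, and Hsp90aa1 and Ifitm3 behaved likewise. High and low cells were always compared within a plate, and results are also given without plate 2 where it matters. Values listed for plates are in the order 2, 3, 4 and 5. From here on, CPM of a library uses the TMM-scaled UMI total of its tested genes, and not of all its genes.

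PE-Cy7-high cells gave more UMIs than PE-Cy7-low cells. The median UMI count per cell was 1336, 1625, 1704 and 1519 in PE-Cy7-high cells, against 1043, 1345, 974 and 1040 in PE-Cy7-low cells. The ratio of high to low was 1.42 ± 0.24 (SD, n = 4 plates); the ranges overlapped, since the low cells of plate 3 lay above the high cells of plate 2. The difference had the same sign in 4 of 4 plates (exact two-sided sign-flip permutation p = 0.125, the smallest that 4 plates allow). Genes detected per cell, thinned to 1000 UMIs each, had medians of 698.5 to 709 in high cells and 682 to 700.5 in low cells, while unthinned medians were 869 to 1040 and 658 to 877. In channel numbers, the PE-Cy7-high cells began at 342, 326, 338 and 321, directly above middle cells that reached 340, 326, 337 and 320. The PE-Cy7-low cells ended at 183, 184, 190 and 158, next to middle cells that began at 184, 186, 190 and 159, so the sides are ranges of a continuous signal.

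Most other channels moved with PE-Cy7. Ranked within a plate from 0 to 100, the APC-Alexa Fluor 750 signal averaged 60.3, 66.6, 64.5 and 61.7 in PE-Cy7-high cells, against 29.9, 38.8, 37.5 and 35.4 in PE-Cy7-low cells. DAPI, a DNA dye that enters cells with a damaged membrane, averaged 63.9, 66.5, 65.4 and 67.2 in high cells and 39.6, 41.7, 36.8 and 35.2 in low cells. The ranges of these channels were far apart. CFP, the reporter, had mean ranks of 56.1, 57.2, 63.1 and 62.1 in high cells and 43.1, 43.5, 39.3 and 45.0 in low cells. PE-Cy5, PE, forward scatter width and side scatter area and width were higher in high cells of every plate too, Alexa Fluor 700 was lower in every plate (38.7 to 44.2 in high cells and 51.7 to 57.6 in low cells), and APC was lower in 3 of 4 plates. Forward scatter area, a measure of cell size, averaged 49.3 ± 1.55 in high cells and 48.9 ± 2.39 in low cells (SD, n = 4 plates). With 11 channels compared, no exact permutation p was below 0.125, or 0.153 after Benjamini-Hochberg adjustment. Shared staining and light shed from one dye into another's channel cannot be told apart in this record.

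**Figure D1:**
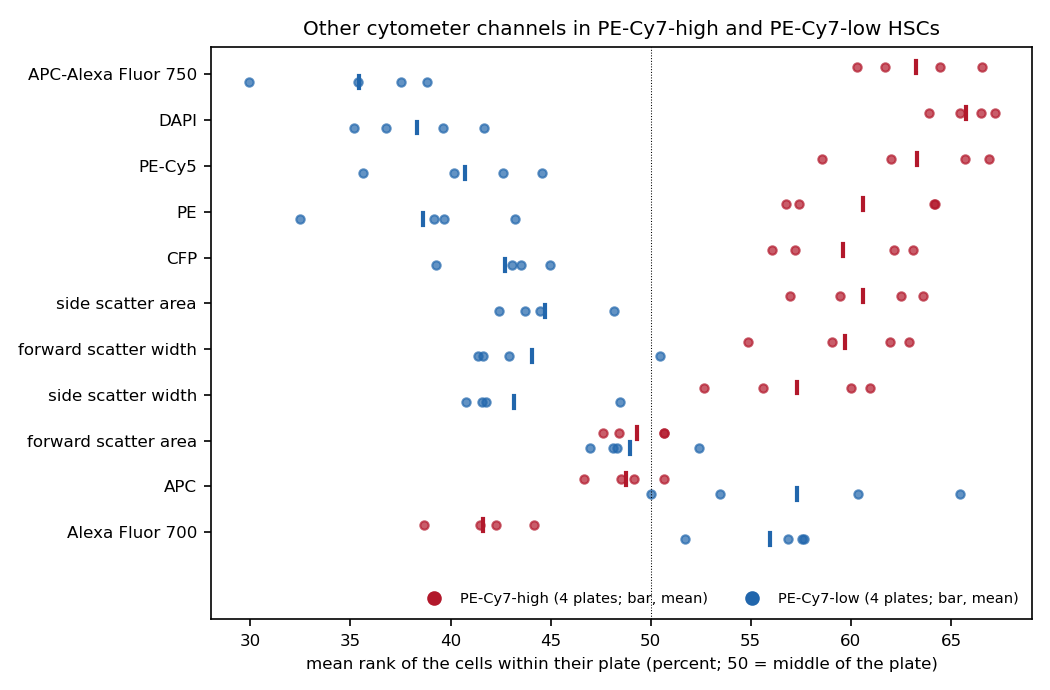
Mean rank (percent, within a plate) of the cells in 11 other cytometer channels, for PE-Cy7-high cells (red) and PE-Cy7-low cells (blue); each point is 1 of 4 plates and bars are means. The sides are farthest apart in APC-Alexa Fluor 750 and DAPI, overlap in forward scatter area, and stand in the opposite order in Alexa Fluor 700.

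The transcriptome differed in both directions between the sides. Of 3268 genes tested by edgeR's quasi-likelihood test on the plate sums, 116 (3.55%) were higher and 120 (3.67%) lower in PE-Cy7-high than in PE-Cy7-low cells at an adjusted p under 0.05. Of these, 105 and 102 had the same sign in all 4 plates, as did 740 (22.6%) of all tested genes. The calls came from the same plate sums, so this agreement is no separate evidence. DNA replication, mitosis and histone genes were among the higher genes, and HSC genes, ribosomal protein genes and the antigen-presentation gene Cd74 were among the lower ones. The median fold change over all tested genes was -0.013 on the log2 scale, the scale of every fold change given here (with its SE), in the direction high over low. Every fold change compares shares of a library's UMIs in tested genes, and PE-Cy7-high libraries held more UMIs from as many cells. A small fall in share is therefore not by itself a fall in UMIs per cell. Without plate 4 the lower genes numbered 62, and the higher ones 80. The gene lists below were chosen with earlier results of these data known, so each count describes its list.

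**Figure D2:**
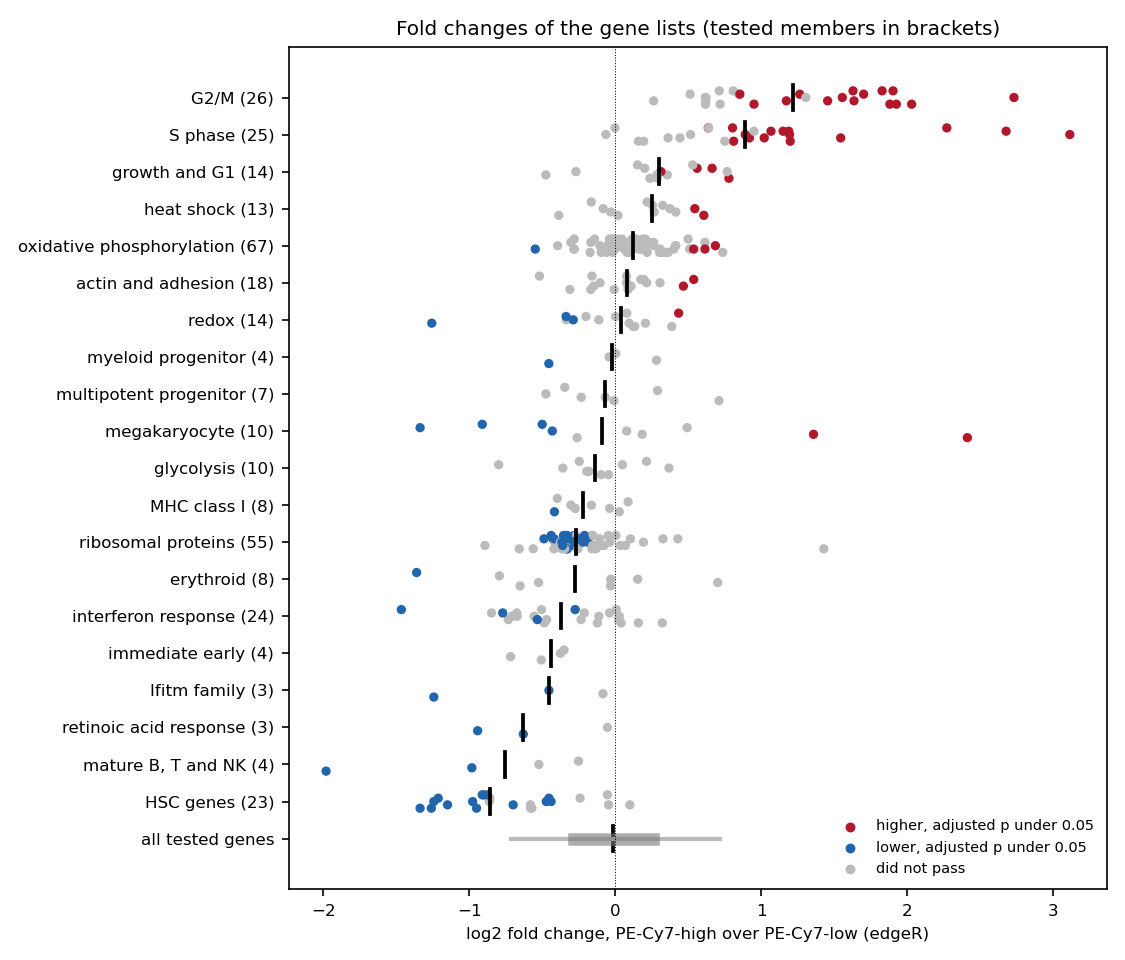
Log2 fold changes of the tested members of each gene list, PE-Cy7-high over PE-Cy7-low, with list medians as black bars; for all tested genes the thick line spans the middle 50% and the thin line the middle 90%. S phase and G2/M members lie to the right, called HSC genes and ribosomal protein genes to the left.

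Many genes of the cell cycle rose in PE-Cy7-high cells. Of 25 tested S phase genes, 15 rose and 0 fell, with a list median of 0.89, and of 26 tested G2/M genes, 15 rose and 0 fell, with a median of 1.22, beside 3.55% higher and a median of -0.013 over all genes. Without plate 4, 10 of 23 G2/M genes rose and their median was 0.71. Tyms, which makes the thymidylate needed for DNA synthesis, had 135, 180.5, 289 and 204 CPM in PE-Cy7-high cells, against 0, 0, 78.8 and 15.2 CPM in PE-Cy7-low cells (log2 3.11 ± 0.48, adjusted p = 9.91e-09). All 4 high libraries lay above all 4 low libraries. Tk1, the salvage enzyme for thymidine, had 198, 361, 401 and 309.7 CPM in high cells and 15.8, 27.4, 63.0 and 91.3 CPM in low cells (log2 2.68 ± 0.35, adjusted p = 3.15e-12), again without overlap. Uhrf1, which guides DNA methylation to newly copied strands, was higher by 2.27 ± 0.36, and the replication ligase Lig1 by 1.54 ± 0.22. Of the helicase subunits that load onto replication origins, Mcm2 to Mcm7 were all called, from 0.64 for Mcm6 to 1.20 for Mcm2.

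Among mitotic genes, Ube2c, the ubiquitin-conjugating enzyme of the anaphase-promoting complex, had 208, 231, 411 and 478 CPM in PE-Cy7-high cells and 15.8, 13.7, 110.3 and 60.8 CPM in PE-Cy7-low cells (log2 2.73 ± 0.35, adjusted p = 9.51e-13). Hmgb2, a chromatin protein abundant in dividing cells, had 520.1, 722, 971 and 664 CPM in high cells and 221, 137, 173 and 228 CPM in low cells (log2 1.93 ± 0.20, adjusted p = 2.14e-18). Neither gene's groups overlapped. The spindle checkpoint kinase Bub1b (2.42 ± 0.50), the kinetochore proteins Cenph (2.09 ± 0.43) and Spc24 (1.89 ± 0.31), the spindle protein Tacc3 (2.03 ± 0.49), the motor Kif11 (1.90 ± 0.49), topoisomerase Top2a (1.88 ± 0.23) and the tubulin Tuba1b (0.95 ± 0.09) rose as well. Top2a and Kif11 overlapped between high and low libraries of different plates. In cells thinned to 1000 UMIs, S phase and G2/M genes together took 1.44, 1.42, 1.84 and 1.75% of UMIs in high cells, against 0.923, 0.779, 0.838 and 0.927% in low cells, over 219 high and 164 low cells with enough UMIs. Unthinned, the shares were 1.23 to 1.72% and 0.724 to 0.822%.

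Histone genes rose as well. Of 13 tested entries whose names begin with Hist or H2af, 11 were called, all higher in PE-Cy7-high cells, beside 3.55% higher over all genes. Among histones with other names, the linker histone H1fx rose (0.85 ± 0.27), in 3 of 4 plates, and the unsplit entry H3f3a/H3f3b (0.11) did not pass. The linker histone Hist1h1b had 874, 371, 1055 and 1619 CPM in PE-Cy7-high cells, against 142, 192, 189 and 167 CPM in PE-Cy7-low cells (log2 2.46 ± 0.19, adjusted p = 2.95e-33). The high libraries differed among themselves far more than the low ones, and every high library lay above every low one. The linker histone Hist1h1a rose by 2.14 ± 0.30 and the core histones Hist1h2ae and Hist1h2an by 2.53 ± 0.29 and 3.29 ± 0.69, the last from 52 UMIs in high cells and 3 in low cells. The entry Hist1h2be/Hist1h1e, whose reads the table does not split, rose by 1.16 ± 0.13, and the variants H2afx and H2afv/H2afz, used in repair and in nucleosomes at promoters, by 1.48 ± 0.23 and 0.85 ± 0.13. Histone genes are near-identical copies of each other, so the split of reads among them is uncertain.

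**Figure D3:**
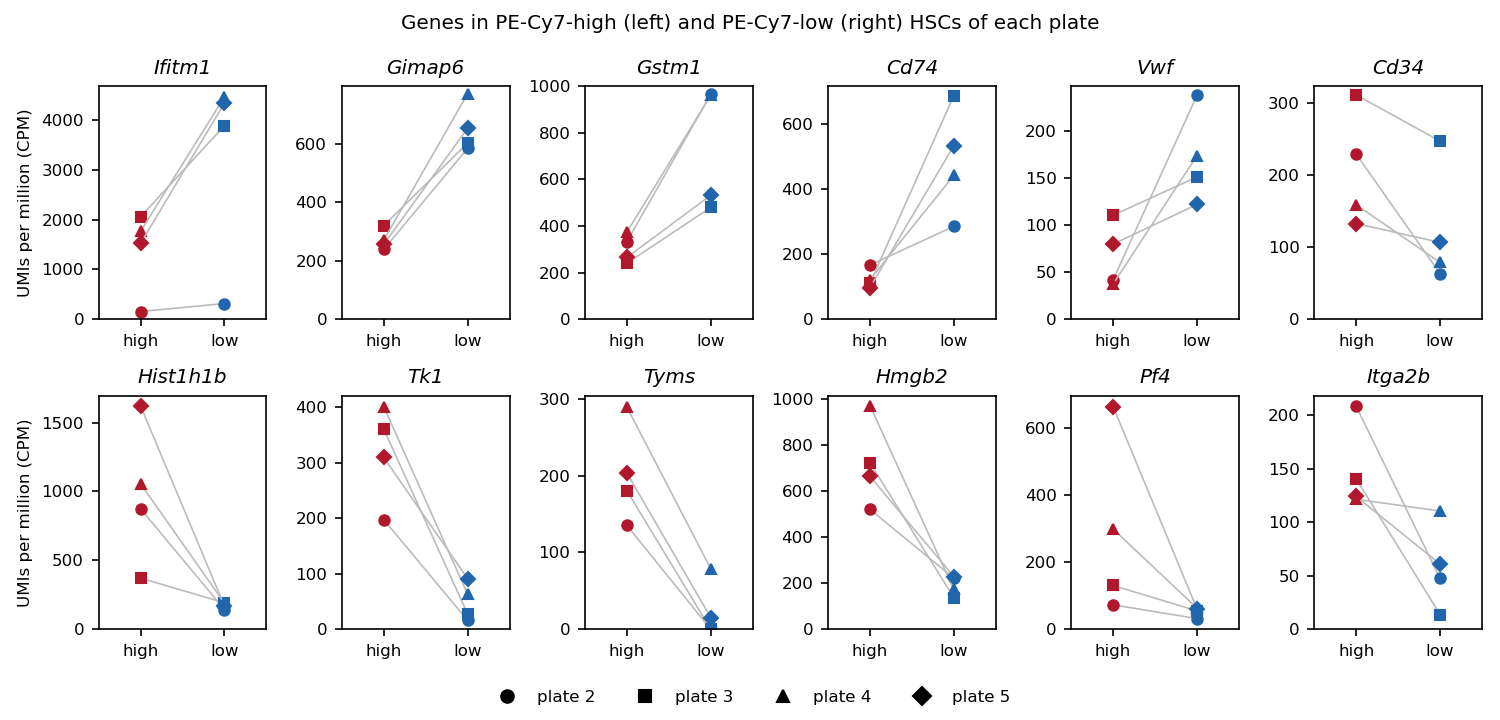
Level (CPM, TMM-scaled, linear axis from 0) of 12 genes in the PE-Cy7-high cells (left, red) and PE-Cy7-low cells (right, blue) of each plate, with lines joining the sides of a plate. Ifitm1 is low on both sides of plate 2, and Pf4 is highest in the high cells of plate 5.

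Many HSC genes fell, as a share of UMIs, in PE-Cy7-high cells. Of 23 tested members of the HSC list, 14 fell and 0 rose, with a median of -0.86, beside 3.67% lower over all genes, and 9 fell without plate 4. Ifitm1, an interferon-induced membrane protein, had 156, 2055, 1764 and 1522 CPM in PE-Cy7-high cells, against 316, 3881, 4459.8 and 4335 CPM in PE-Cy7-low cells (log2 -1.24 ± 0.09, adjusted p = 2.72e-39). The ranges overlapped only through plate 2, where the gene was low on both sides, and within every plate the high cells lay below the low cells; the fold change without plate 2 was -1.25. Gimap6, a GTPase of lymphocytes and HSCs, had 239, 321, 271 and 257 CPM in high cells and 585, 603, 772 and 654 CPM in low cells (log2 -1.26 ± 0.19, adjusted p = 1.88e-09), with no overlap. Txnip, an inhibitor of thioredoxin and the one tested gene of the quiescence list, fell by 0.90 ± 0.12, and the transcription factor Hlf by 0.95 ± 0.19.

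Other HSC genes that fell included Mllt3, a chromatin reader (-0.98 ± 0.26, lower in 3 of 4 plates), Pdzk1ip1 (-0.70 ± 0.14), Lmo2, a transcription cofactor (-0.44 ± 0.12), Gimap1 (-0.88 ± 0.21), Tmem176b (-0.47 ± 0.11), Ifitm3 (-0.45 ± 0.11), Vwf (-1.34 ± 0.39), the cytokine-signal inhibitor Cish (-1.21 ± 0.37) and the lymphotoxin subunit Ltb (-1.15 ± 0.38). Vwf, the clotting factor that marks platelet-biased HSCs in the mouse, had 41.6, 110.3, 37.3 and 79.6 CPM in PE-Cy7-high cells and 237, 151, 173 and 122 CPM in PE-Cy7-low cells (adjusted p = 0.0117), or 28 against 45 UMIs in all. Its groups did not overlap, but its call did not survive the loss of single plates, with -0.99 without plate 2 (adjusted p = 0.226) and -1.12 without plate 4 (adjusted p = 0.118). Cish was at -1.07 without plate 2 (adjusted p = 0.122), -1.35 without plate 4 (adjusted p = 0.0517) and -1.10 without plate 5 (adjusted p = 0.112), and Ltb at -1.23 without plate 2 (adjusted p = 0.0594), -0.76 without plate 4 (adjusted p = 0.405) and -1.24 without plate 5 (adjusted p = 0.0859). Ifitm3 was at -0.38 without plate 5 (adjusted p = 0.0834). Members of the list that did not pass included Mecom (-0.58 ± 0.32), Procr (-0.86 ± 0.35), Gata2 (-0.045 ± 0.17) and Meis1 (-0.053 ± 0.24).

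Outside the list, further genes with a large fall were Myof, a membrane-repair protein (-1.80 ± 0.44), Prdm16, a transcription factor needed by HSCs (-1.63 ± 0.42), the autophagy kinase Ulk1 (-1.26 ± 0.35), Maged1 (-1.26 ± 0.30), the PI3 kinase inhibitor Pik3ip1 (-1.15 ± 0.26), Lst1 (-1.18 ± 0.22), Phf3 (-1.20 ± 0.33) and Neurl3 (-1.25 ± 0.43). Prdm16 had 41.6, 40.1, 28.0 and 88.5 CPM in PE-Cy7-high cells and 206, 123, 173 and 122 CPM in PE-Cy7-low cells (adjusted p = 0.00343). All high libraries were below all low ones, yet the call ended at -1.41 without plate 2 (adjusted p = 0.0743) and -1.38 without plate 4 (adjusted p = 0.0756). Ulk1 was at -1.12 without plate 3 (adjusted p = 0.08) and -1.18 without plate 4 (adjusted p = 0.0592), Phf3 at -0.91 without plate 4 (adjusted p = 0.181) and -1.11 without plate 5 (adjusted p = 0.0709) and Neurl3 at -1.21 without plate 3 (adjusted p = 0.15), -0.93 without plate 4 (adjusted p = 0.387) and -1.32 without plate 5 (adjusted p = 0.0709).

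Of 7 tested genes of the sort gate and surface antigen list, 1 passed, beside 3.55% higher and 3.67% lower over all genes. Cd34, a sialomucin, had 229, 311, 159 and 133 CPM in PE-Cy7-high cells and 63.3, 247, 78.8 and 106 CPM in PE-Cy7-low cells, higher in high cells of 4 of 4 plates but with overlapping ranges and below the threshold (log2 0.71 ± 0.30, adjusted p = 0.156). Procr, the protein C receptor, had 72.8, 110.3, 56.0 and 133 CPM in high cells and 158, 151, 236 and 137 CPM in low cells, which did not overlap, and it did not pass (log2 -0.86 ± 0.35, adjusted p = 0.124); its sign turned when the sides were formed within map numbers (0.13) or from PE-Cy7 corrected for APC-Alexa Fluor 750 (0.16). Kit (-0.23 ± 0.20), Esam (-0.58 ± 0.28), Cd9 (-0.26 ± 0.24) and Ptprc, which encodes CD45 (-0.24 ± 0.49), did not pass either. Ly6a, which encodes Sca-1, was below the filter on low counts, at 7 UMIs in PE-Cy7-high cells and 23 in PE-Cy7-low cells, with 1, 4, 0 and 2 UMIs in the high and 6, 12, 1 and 4 in the low cells of the plates. It was lower in 4 of 4 plates, and in the fit with no filter on low counts it was called (log2 -2.13 ± 0.60, adjusted p = 0.0302), but not with 30% of cells on each side (log2 -1.20 ± 0.48, adjusted p = 0.133). Slamf1, which encodes CD150, had 6 UMIs in high and 4 in low cells, Cd48 had 1 and 0, and Flt3, a receptor of multipotent progenitors, had 20 and 6. In the fit with no filter, Flt3 (log2 1.13 ± 0.66, adjusted p = 0.68) and Slamf1 (log2 0.00443 ± 0.83, adjusted p = 1) were not called. Of the 7 tested members of the multipotent progenitor list, 0 passed in either direction.

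Itga2b, the integrin CD41 of megakaryocytes and of some HSCs, was the 1 of 7 tested surface genes that passed. It had 208, 140.4, 121 and 124 CPM in PE-Cy7-high cells and 47.5, 13.7, 110.3 and 60.8 CPM in PE-Cy7-low cells (log2 1.36 ± 0.44, adjusted p = 0.0326). The groups did not overlap, but the call rested on 61 UMIs against 15 and ended at 1.10 without plate 2 (adjusted p = 0.278), 1.03 without plate 3 (adjusted p = 0.231) and 1.47 without plate 5 (adjusted p = 0.0709). Pf4, a chemokine of platelet granules, had 72.8, 130.3, 299 and 664 CPM in PE-Cy7-high cells and 31.6, 54.9, 63.0 and 60.8 CPM in PE-Cy7-low cells (log2 2.41 ± 0.36, adjusted p = 2.13e-09). Of its 127 UMIs in high cells, 76 came from 2 cells, and with 6 cells rich in Pf4, Cd74 or Hbb-b1 left out its fold change was 1.18 (adjusted p = 0.0851). Of 10 tested megakaryocyte genes, 2 rose and 4 fell, beside 3.55% higher and 3.67% lower over all genes. With a plate left out, 1 or 2 rose and 2 or 3 fell (1 rose without plate 2, 3 or 5, and 2 fell without plate 2 or 4). Those that fell included Vwf, Nfe2 (-0.43 ± 0.14), a transcription factor of platelet formation, and the unsplit entry Serpina3f/Serpina3g (-0.50 ± 0.12, and -0.31 without plate 5 (adjusted p = 0.237)). The list's summed level was 3108 to 3637 CPM in high cells and 3662 to 4239 CPM in low cells.

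Cd74, the invariant chain that escorts MHC class II molecules, fell by 1.98 ± 0.24 in PE-Cy7-high cells. It had 166, 110.3, 121 and 97.3 CPM in PE-Cy7-high cells, against 285, 686, 441 and 532 CPM in PE-Cy7-low cells (adjusted p = 4.50e-14), with no overlap. H2-Aa, an MHC class II chain, had 239, 211, 168 and 248 CPM in high cells and 285, 398, 615 and 411 CPM in low cells (log2 -0.98 ± 0.22, adjusted p = 0.000396), and -0.66 without plate 4 (adjusted p = 0.149). These were the 2 of 4 tested genes that fell from a list of mature B, T and NK cell markers, beside 3.67% lower over all genes. H2-Ab1 (-0.52 ± 0.35) and H2-Eb1 (-0.25 ± 0.39) of that list did not pass. The whole list of 15 summed to 513 to 687 CPM in high cells and 759 to 1399 CPM in low cells. Of its 12 measured genes, 6 had no UMI in any cell, among them the T cell genes Cd3e and Cd8a. Of the 131 Cd74 UMIs in low cells, 36 came from 2 cells, and without the 6 rich cells the fold change was -1.57. The part of other cell types in these values was not tested.

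Hbb-b1, a haemoglobin chain, fell by 1.36 ± 0.21 (adjusted p = 2.68e-08), at 93.6, 311, 233 and 177 CPM in PE-Cy7-high cells and 617, 302, 473 and 745 CPM in PE-Cy7-low cells. It was lower in high cells of 3 of 4 plates and slightly higher in those of plate 3. With the map 1 cells kept, its sign turned, at 0.64 (adjusted p = 0.105). The other 7 tested erythroid genes did not pass, and the list summed to 4088 to 6266 CPM in high cells and 4996 to 6465 CPM in low cells. Of 4 tested myeloid progenitor genes, 1 fell, beside 3.67% lower over all genes. This was Prtn3, a protease of neutrophil granules (-0.45 ± 0.13, and -0.36 without plate 3 (adjusted p = 0.168) and -0.39 without plate 4 (adjusted p = 0.124)). Among mast cell, lymphoid progenitor and mature neutrophil genes, 1 each could be tested, and Srgn (0.046 ± 0.077), Cd79b (-0.50 ± 0.38) and Fcer1g (-0.69 ± 0.36) did not pass, while no endothelial gene was high enough to test.

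Some interferon-response genes fell. Of 24 tested, 4 fell and 0 rose, beside 3.67% lower over all genes, with a median of -0.37. Parp14 (-1.46 ± 0.43), Samhd1, which degrades deoxynucleotides (-0.77 ± 0.24), Shisa5 (-0.53 ± 0.15) and Ly6e, the one tested member of the Ly6 family list (-0.27 ± 0.089), were called. Of 3 tested Ifitm genes, Ifitm1 and Ifitm3 fell and Ifitm2 did not pass (-0.084 ± 0.14). None of the 4 held without every plate: Parp14 was at -1.26 without plate 2 (adjusted p = 0.0616) and -1.25 without plate 3 (adjusted p = 0.147), Samhd1 at -0.83 without plate 2 (adjusted p = 0.0529), -0.49 without plate 4 (adjusted p = 0.405) and -0.65 without plate 5 (adjusted p = 0.223), Shisa5 at -0.52 without plate 4 (adjusted p = 0.063) and -0.31 without plate 5 (adjusted p = 0.433) and Ly6e at -0.21 without plate 3 (adjusted p = 0.282), -0.29 without plate 4 (adjusted p = 0.129) and -0.27 without plate 5 (adjusted p = 0.163). In all, 0 to 2 of the list were called with a plate left out, 0 of them without plate 4. Of 8 tested MHC class I genes, 1 fell, beside 3.67% lower over all genes. This was H2-K1 (log2 -0.42 ± 0.093, adjusted p = 0.000376, and -0.23 without plate 4 (adjusted p = 0.271)), while the unsplit entry H2-D1/H2-B2 (-0.27 ± 0.10) and B2m/BC002288 (-0.40 ± 0.18) did not pass.

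Of 14 tested growth genes, 4 rose and 0 fell, against 2 that rose without plate 4 and beside 3.55% higher over all genes, with a median of 0.30. Ran, the GTPase of nuclear transport, had 926, 1193, 1195 and 1088 CPM in PE-Cy7-high cells and 617, 549, 709 and 699.7 CPM in PE-Cy7-low cells (log2 0.78 ± 0.14, adjusted p = 1.37e-06), with no overlap. Cdk4, the kinase of G1 (0.56 ± 0.13), nucleolin, Ncl (0.31 ± 0.086, and 0.28 without plate 4 (adjusted p = 0.0982)), and spermidine synthase, Srm (0.66 ± 0.18, and 0.58 without plate 2 (adjusted p = 0.0698) and 0.56 without plate 4 (adjusted p = 0.122)), rose too. The heat shock list had 2 higher of 13 tested, beside 3.55% higher over all genes. These were the chaperones Hsp90aa1 (0.61 ± 0.18, and 0.60 without plate 3 (adjusted p = 0.102), 0.56 without plate 4 (adjusted p = 0.128) and 0.62 without plate 5 (adjusted p = 0.0727), with the opposite sign in plate 2, where it was low on both sides) and Hspe1 (0.55 ± 0.17, and 0.55 without plate 3 (adjusted p = 0.0698), 0.55 without plate 4 (adjusted p = 0.103) and 0.42 without plate 5 (adjusted p = 0.227)).

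Of 67 tested genes of oxidative phosphorylation, 3 rose and 1 fell, with a median of 0.12. The respiratory chain subunits Uqcrq (0.62 ± 0.18), Ndufb2 (0.69 ± 0.22) and Cox5a (0.54 ± 0.18) rose and Cox7a2l (-0.55 ± 0.13) fell. These counts are near the shares over all genes, 3.55% higher and 3.67% lower. The call of Uqcrq ended at 0.59 without plate 2 (adjusted p = 0.0598) and 0.56 without plate 3 (adjusted p = 0.0899), and those of Ndufb2 and Cox5a ended without any 1 of the 4 plates (0.64, 0.60, 0.79 and 0.73 for Ndufb2, 0.55, 0.45, 0.53 and 0.63 for Cox5a). Of 10 tested glycolytic genes, 0 passed, Ldha being at 0.37 ± 0.13 and Aldoa at -0.36 ± 0.13.

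Genes of the redox list split, with 1 of 14 tested higher and 3 lower, beside 3.55% higher and 3.67% lower over all genes. Gstm1, a glutathione transferase, had 333, 241, 373 and 265 CPM in PE-Cy7-high cells, against 965, 480.0, 961 and 532 CPM in PE-Cy7-low cells (log2 -1.26 ± 0.17, adjusted p = 1.37e-10), and the groups did not overlap. The ferritin chains Ftl1 (-0.34 ± 0.067, and -0.24 without plate 5 (adjusted p = 0.0538)) and Fth1 (-0.29 ± 0.08, and -0.25 without plate 4 (adjusted p = 0.116) and -0.27 without plate 5 (adjusted p = 0.0691)) fell, and thioredoxin, Txn1, rose (0.43 ± 0.13, and 0.23 without plate 4 (adjusted p = 0.545)), while 10 of 14 tested did not pass. Of 3 tested genes of the retinoic acid response list, 2 fell, beside 3.67% lower over all genes. Among these 2 was the transglutaminase Tgm2 (-0.94 ± 0.23, and -0.64 without plate 3 (adjusted p = 0.162) and -0.77 without plate 5 (adjusted p = 0.0654)). A DR5 element, named in the strain, is a known type of binding site for retinoic acid receptors. Of 18 tested actin and adhesion genes, 2 rose and 0 fell, beside 3.55% higher over all genes. Vim, an intermediate filament, rose (0.47 ± 0.16) and Lgals9, a galectin, rose (0.54 ± 0.18), and their calls ended when single plates were left out, with Vim at 0.45, 0.52, 0.49 and 0.42 without plates 2, 3, 4 and 5 in turn and Lgals9 at 0.52 without plate 3 (adjusted p = 0.222), 0.43 without plate 4 (adjusted p = 0.307) and 0.63 without plate 5 (adjusted p = 0.0562). Of 4 tested immediate early genes, 0 passed.

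Part of the ribosomal protein genes fell by a small amount. Of 55 tested, 21 fell and 0 rose, beside 3.67% lower over all genes, with a median of -0.27. Rps14 had 11037, 8212, 8875 and 8822 CPM in PE-Cy7-high cells, against 15170.4, 11136, 12103 and 13356 CPM in PE-Cy7-low cells (log2 -0.49 ± 0.048, adjusted p = 6.43e-21), and its groups did not overlap. Rplp1 (-0.42 ± 0.045), Rps9 (-0.44 ± 0.049) and Rps18 (-0.36 ± 0.052) followed, all in 4 of 4 plates. These levels are shares of each library's UMIs in tested genes. Per cell, the list gave 238, 289, 294 and 298 UMIs in PE-Cy7-high cells, against 201, 239, 205 and 217 UMIs in PE-Cy7-low cells, while all other genes gave 1389.8, 1572, 1603 and 1702 UMIs in high cells and 918, 1159, 970.2 and 999 UMIs in low cells. Both were higher per high cell in 4 of 4 plates, so the fall was one of the share, with more ribosomal UMIs per cell and a larger surplus of the others.

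Set against the middle cells, 46 genes (1.41%) were called in PE-Cy7-high cells, and 42 (1.29%) in the middle cells set against PE-Cy7-low cells. The step of middle over low was the larger one for 88 of 116 higher genes and 51 of 120 lower genes. The same share was not taken over all tested genes, so these counts describe the called genes only. Some higher genes had few UMIs in low cells, where the size of that step is uncertain. For Tk1 the step of middle over low was 2.25 and that of high over middle 0.43, while for Ifitm1 they were -0.41 and -0.83. Along 5 equal bins of PE-Cy7 rank from low to high, Hist1h1b averaged 176, 325, 559, 908 and 1023 CPM and Cd74 502, 439, 299, 217 and 129 CPM. Both changed in one direction at every step, though the SDs of neighbouring bins overlapped. Cd34 averaged 126, 174, 195, 217 and 215 CPM, with SDs of up to 83.9 CPM.

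**Figure D4:**
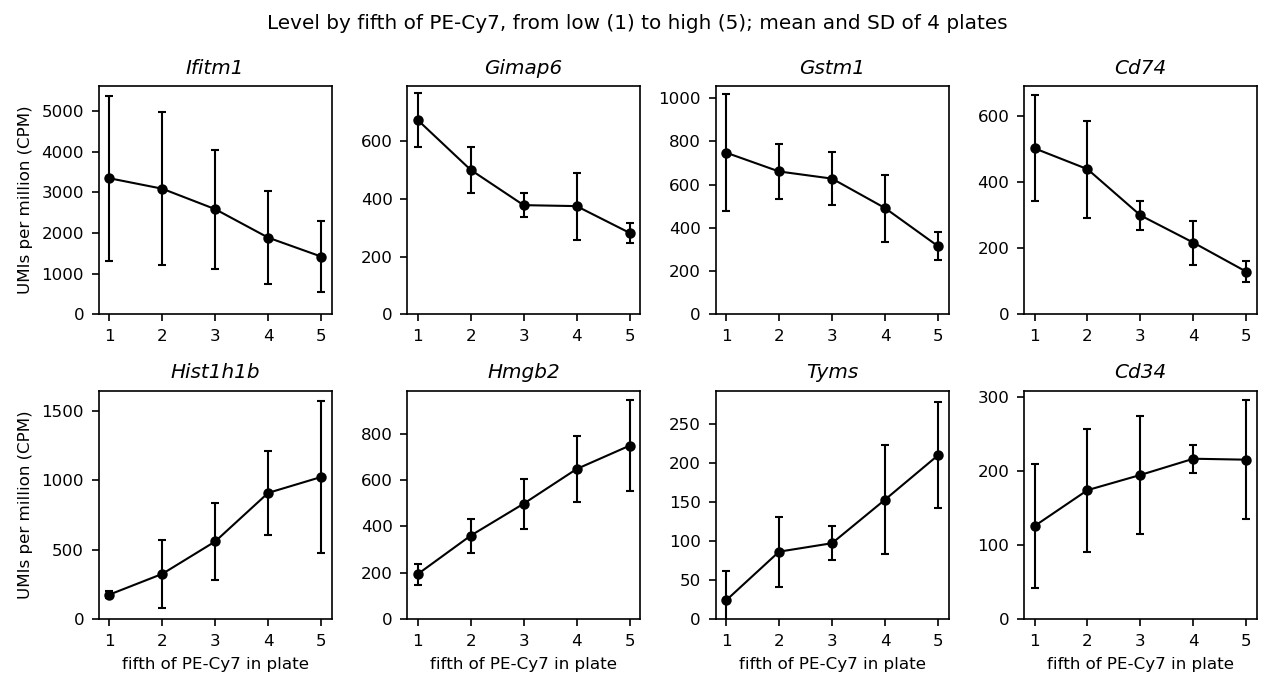
Mean level (CPM, linear axis from 0) of 8 genes in 5 equal bins of PE-Cy7 rank within a plate, from low (1) to high (5), with the SD over 4 plates. Ifitm1, Gimap6, Gstm1 and Cd74 decline along the bins and Hist1h1b, Hmgb2 and Tyms climb, while the bars of Cd34 overlap throughout.

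The sides differed in the map numbers of their cells. Map number 9 held 35.8, 23.1, 23.5 and 19.1% of PE-Cy7-high cells, against 10.4, 3.08, 2.94 and 2.94% of PE-Cy7-low cells. Map numbers 2, 3 and 4 were rarer among high cells in every plate, map 4 with 25.4, 20.0, 7.35 and 10.3% of high cells and 31.3, 40.0, 26.5 and 20.6% of low cells, and map 3 with 4.62 to 8.82% and 10.4 to 20.6%. Map number 8 held 1.49, 24.6, 32.4 and 23.5% of high and 14.9, 6.15, 4.41 and 14.7% of low cells, a higher share in plates 3, 4 and 5 and a lower one in plate 2. With 9 map numbers compared over 4 plates, the smallest exact permutation p was 0.125 (0.281 after Benjamini-Hochberg adjustment). When the sides were formed within each plate and map number, 21 genes were higher and 12 lower, of 2770 tested. Ifitm1 (-0.72), Cd74 (-0.96), Pf4 (1.52), Itga2b (1.62) and Hist1h1b (1.27) were called among them. Of the lists, 4 of 20 tested G2/M genes were called, 1 of 23 HSC genes, which was Ifitm1 itself, and 0 of 25 S phase genes. Whether the map numbers were themselves drawn from these transcripts is not known. If so, the loss of calls within them would be set in advance, so no conclusion is drawn from it.

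Because CFP was brighter in PE-Cy7-high cells, the cells of each plate were also split at the median of PE-Cy7 and of CFP and both effects were estimated in 1 edgeR fit of 16 libraries, a comparison added after the data were seen. Of 3163 genes tested, 129 (4.08%) were called for PE-Cy7 beside CFP, 47 higher and 82 lower, and 216 (6.83%) for CFP beside PE-Cy7, 142 higher and 74 lower. The PE-Cy7 effect differed from the CFP effect, by a test of the difference itself, in 9 genes (0.285%). Vwf was lower above the PE-Cy7 median (-1.23 ± 0.28) and higher above the CFP median (0.88 ± 0.29), a difference of -2.11 ± 0.43 (adjusted p = 0.000938). Sult1a1, a sulfotransferase, was at -1.61 ± 0.32 for PE-Cy7 and 0.37 ± 0.32 for CFP (adjusted p of the difference = 0.0237).

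In 5 genes of replication, chromatin and the spindle the CFP effect was the larger. Tk1 was at 0.58 for PE-Cy7 and 2.28 for CFP (adjusted p of the difference = 0.000165), and Hist1h1a at 0.80 and 1.93, Hist1h1d at 0.59 and 1.76, the maintenance methyltransferase Dnmt1 at 0.27 and 1.11, and Tuba1b at 0.36 and 0.89, in the same order. Ifitm1 was lower above both medians, by more for PE-Cy7 (-0.76) than for CFP (-0.42, adjusted p of the difference = 0.039). The remaining gene, the histone Hist1h2bc, was at 0.37 for PE-Cy7 and -1.04 for CFP. An interaction of PE-Cy7 and CFP was called by edgeR's quasi-likelihood test in 0 genes, with 169 at an unadjusted p under 0.05.

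**Figure D5:**
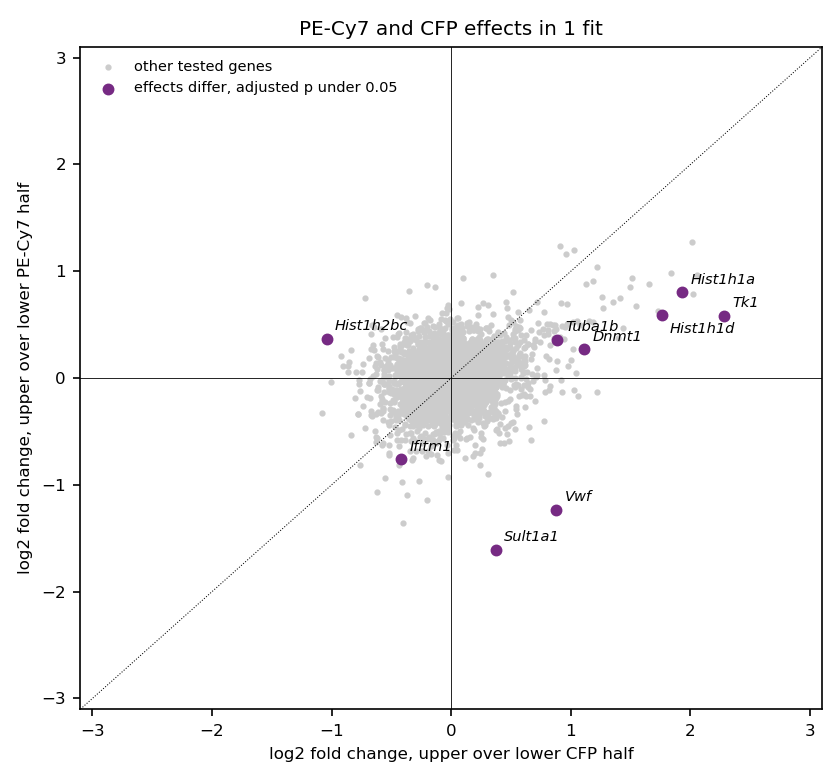
Log2 fold change of cells above over cells below the PE-Cy7 median (vertical) against the same for CFP (horizontal) for 3163 genes in 1 fit, with the 9 genes whose effects differ in purple. Vwf and Sult1a1 lie low with CFP effects above 0, and Tk1, Hist1h1a, Hist1h1d, Dnmt1 and Tuba1b lie below the dotted line of equal effects.

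Since UMIs per cell and cycle genes moved with PE-Cy7, the fit was repeated with each held in check. With high and low cells matched 1 to 1 on UMIs within a plate, 15 genes were higher and 11 lower, and Ifitm1 (-0.88), Cd74 (-1.57), Gimap6 (-0.87), Gstm1 (-0.87) and Hist1h1b (1.96) were among them, from fewer cells. Most list members were no longer called in this matched fit. Higher were 4 of 17 tested S phase, 3 of 9 G2/M and 0 of 13 growth genes. Lower were 3 of 15 HSC, 3 of 46 ribosomal protein and 0 of 14 interferon-response genes. With the 20% of each plate's cells richest in S phase and G2/M transcripts left out, 2 genes were higher and 21 lower, among the lower ones Ifitm1 (-0.74), Cd74 (-1.58), Gimap6 (-0.86), Gstm1 (-0.89), Txnip (-0.52) and Pdzk1ip1 (-0.54). Called then were 1 of 16 tested S phase genes and 0 of 9 G2/M genes. The cells were picked by these same 2 lists, so the loss of calls in them was partly set by the picking. With the sides formed from PE-Cy7 corrected for the 7 other dye channels at once, 0 of 2785 genes were called by edgeR's quasi-likelihood test, with 201 at an unadjusted p under 0.05. Ifitm1 was then at -0.36 (adjusted p = 0.165) and Hist1h1b at 0.65 (adjusted p = 0.383). With APC-Alexa Fluor 750 alone corrected for, 39 genes were higher and 38 lower. These 2 corrections were added after the data were seen.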

How the data were processed

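The authors deposited raw UMI counts of 27297 gene entries in 1536 wells and a cytometer record of 1430 wells. The submitters' processing notes name bcl2fastq 2.15.0.4, Bismark 0.19.0, DESeq2, STAR, featureCounts and cutadapt for the series, without roles, and no source states how reads became UMI counts. Channel values in the deposited record were read as a score and ranked by plate, since PE-Cy7 holds log10 of whole channel numbers (1353 of 1353 within 0.01). A further 3 value columns were not used.

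UMIs were summed by plate and side into 12 libraries. The test was edgeR 4.0.16's quasi-likelihood F test (R 4.3.3), with TMM scaling, filterByExpr, a plate block and a Benjamini-Hochberg threshold of 0.05. The block pairs the sides, which come from the same plate. On 6 residual degrees of freedom edgeR set an infinite prior, so single genes take their spread from the trend shared by all. With the block, edgeR's p-values rest on how differences between sides vary over plates, as given by that trend. This variation may be technical, and a stricter reading takes the pool as 1 sample with no test. In simulated data for this comparison (3268 genes), 64% of 100 genes changed by log2 1 and 93% of 100 changed by log2 2 were recovered, and 5.99% of calls were false. The simulation held no plate effects and the same dispersion for every gene, so these rates need not hold for the real counts. Values per plate were compared by exact sign-flip permutation. Doublets were not searched for in these single-cell sorts.

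Members and the 27 gene lists (681 entries, 667 matched) were chosen with earlier results of these data known. The rule for named genes took Ifitm1, Ly6a, Cd34, tested surface genes, the 15 largest called fold changes per direction with 1 sign in 4 plates, the 5 smallest p-values per direction and up to 4 called members of each list by p. Other named genes were chosen after their values were seen, and some genes that the rule took are not reported here. Alternatives were DESeq2 1.42.0, other filters, scalings, side sizes, cell subsets and channel corrections.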

Additional observations from a re-analysis of the deposited data

Results flagged for a closer look

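Among 100 sets of 4 plate differences that were screened for 1 plate far from the other 3, 4 stood out, and chance alone marks about 1 in 20 such sets. All values are differences in log2 CPM, PE-Cy7-high minus PE-Cy7-low. Hsp90aa1 was at -1.14 in plate 2, against 0.58, 0.61 and 0.70 in the other plates, and in plate 2 the gene was low on both sides, at 10.4 CPM in high cells and 31.6 CPM in low cells. Ltb was at -2.80 in plate 4, against -0.87, -0.76 and -0.55 elsewhere. Hist1h2ae was at 1.81 in plate 3, against 2.50, 2.52 and 2.57. Rps14 was at -0.60 in plate 5, against -0.46, -0.45 and -0.44.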

How the results depend on the processing

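The counts of called genes, 116 higher and 120 lower, moved by over 1.5 times under several settings. The fit with no replicate block, in which the pairing of the sides within a plate is not used, gave 24 higher and 8 lower. DESeq2 gave 55 higher and 73 lower, cells thinned to 1000 UMIs 37 higher and 49 lower, sides matched on UMIs 15 higher and 11 lower, the most cycling 20% left out 2 higher and 21 lower, and sides within map numbers 21 higher and 12 lower. Correction for scatter gave 51 higher and 72 lower, for CFP 66 higher and 78 lower, and, added after the data were seen, for APC-Alexa Fluor 750 39 higher and 38 lower, for DAPI 73 higher and 66 lower, for UMIs and S and G2/M share 16 higher and 9 lower, and for the 7 other dye channels 0 higher and 0 lower. With no filter on low counts there were 146 higher and 53 lower (73.4% of calls higher, against 49.2% in the fit reported). Leaving out a plate gave 80 to 98 higher and 62 to 107 lower. The other settings (RLE size factors, a stricter filter, high and low libraries only, 10% and 30% sides, error wells ranked lowest, map 1 kept, cells of at least 1000 UMIs, correction for PE and PE-Cy5, a trend over 5 bins) stayed within 1.5 times. The causes were not tested. The fold changes that changed sign were those of Procr (0.13 within map numbers, 0.16 corrected for APC-Alexa Fluor 750, 0.19 for 7 dyes), Tk1 (-0.080 for 7 dyes), Hist1h2be/Hist1h1e (-0.012 without cycling cells, -0.059 for 7 dyes), Hbb-b1 (0.64 with map 1 kept), Serpina3f/Serpina3g (0.10 for 7 dyes), Cox5a (-0.038 within map numbers) and Txn1 (-0.013 for 7 dyes). With 10% sides, the S phase and G2/M share differed by 1.11 points (0.747 as reported) and the CFP rank by 22.6 (16.9). The rank difference of forward scatter area changed sign without plates 4 and 5 (-0.72 and -0.26) and ran from -0.72 to 1.85 with a plate left out. Map number 5 changed sign with 30% sides (2.75 points), and map number 7 without plate 2, running from -1.002 to 1.003 points with a plate left out. At 511 to 6026 UMIs per cell, genes with few UMIs, Ly6a among them, entered only fits with a looser filter or more cells.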

Other observations

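Further genes, picked after their values were seen and in no list, differed in their share of UMIs between PE-Cy7-high and PE-Cy7-low cells. Here too, a small fall in share is not by itself a fall in UMIs per cell. The translation factors Eef2 (-0.41 ± 0.068), Eef1a1 (-0.30 ± 0.066) and Eef1b2 (-0.36 ± 0.077) were lower, as was the ribosome-associated Naca (-0.30 ± 0.10). Gabarapl1, an autophagy protein (-0.89 ± 0.22), and Gaa, a lysosomal enzyme that degrades glycogen (-0.83 ± 0.28), were lower, whereas Gm2a, a lysosomal activator protein (0.85 ± 0.21), was higher, in 3 of 4 plates. Hbp1, a repressor of cell-cycle genes (-1.27 ± 0.37, lower in 3 of 4 plates), Ypel3 (-0.89 ± 0.21) and Pnrc1 (-0.78 ± 0.14) were lower too. Higher genes outside the lists included Tgfb1, a growth factor that restrains HSCs (0.91 ± 0.23), the de novo DNA methyltransferase Dnmt3b (1.05 ± 0.34) and the splicing factor Srsf2 (1.05 ± 0.31).

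Across all 1343 cells, the rank correlation of PE-Cy7 with APC-Alexa Fluor 750 averaged 0.366 over the plates (0.333 to 0.389), with DAPI 0.333 (0.289 to 0.408), with UMIs per cell 0.249 (0.201 to 0.287) and with the S phase and G2/M share 0.279 (0.164 to 0.387). The cells of a plate share library and staining, so these values are descriptions. The 77 wells without a PE-Cy7 value had a median of 1140 UMIs, a mean CFP rank of 44.4 and an S phase and G2/M share of 0.777%.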
